A study of Macaca mulatta with 6 samples.

Results

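miR-320 and miR-484 were followed in the plasma of rhesus monkeys after and before ischemia. All entries of the deposited table were taken whose name, without species prefix, arm, copy number and isomiR suffix, reads miR-320 or miR-484 with or without a closing letter. This gave 8 of 2046 entries, 7 of miR-320 and 1 of miR-484. The libraries were 3 after ischemia and 3 before ischemia, each a small RNA library from the plasma of an adult rhesus monkey (Macaca mulatta). Ischemia was made by flushing a clot through a micro-catheter into the M1 segment of the right middle cerebral artery, and the second blood sample was drawn 3 h after stroke onset. The methods include only the 3 monkeys whose artery was still occluded at that time and take their baseline blood as the reference, and libraries with the same number are read here as 1 monkey. The libraries after ischemia held 9737589, 8793196 and 6036831 counts, against 10745499, 15275199 and 15548693 before ischemia. In plasma, release by fewer cells and less RNA per cell cannot be told apart. No library came from an animal that had anesthesia and surgery without occlusion, so these and ischemia cannot be told apart.

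Most miRNAs are cut out of a long primary transcript by the Microprocessor (Drosha with DGCR8) and then by Dicer. The precursor of miR-320 is known in mouse cells to skip the first cut: its 5′ end is the start of transcription and carries a cap, it leaves the nucleus through exportin 1, and mainly its 3p strand is kept. miR-484 is likewise made without DGCR8 in mouse cells. Both are abundant in blood, and miR-484 has been used as a reference level in plasma. In rodent heart, miR-320 is known to repress Hsp20 and miR-484 to repress Fis1, a factor of mitochondrial fission. In RefSeq (assembly T2T-MMU8v2.0) MIR320A lies next to POLR3D, which encodes a subunit of RNA polymerase III, while MIR320B overlaps NVL, MIR320C overlaps OSBPL1A and MIR484 overlaps NDE1.

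The first set of sequences shows what the abundant entries share, with the seed (bases 2 to 8) in capitals. The sequences are those of the deposited table. In the entry names, L (5′ end) and R (3′ end) give how many bases an entry is longer or shorter than in miRBase, and ss marks a substitution.
mml-miR-320a: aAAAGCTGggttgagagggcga
mml-miR-320b_R-2: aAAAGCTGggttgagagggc
mml-miR-320c_R-3_1ss15CG: aAAAGCTGggttgagaggg
mml-miR-484: tCAGGCTCagtcccctcccgat
The entries named miR-320b and miR-320c hold no base that differs from miR-320a. The first is miR-320a without its last 2 bases, so that reads of a shortened miR-320a and of this paralog cannot be told apart. The second is miR-320a without its last 3 bases. Its name marks a change from C to G at base 15 of miR-320c, where miR-320a also holds G. By its name this entry thus differs from miR-320c in miRBase, while it matches miR-320a over its whole length. The seed of miR-484 was found in no other entry of the table.

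The second set shows the rare entries, with capitals for the bases that differ from miR-320a or precede its first base.
hsa-miR-320d_R+1: aaaagctgggttgagaggAA
ptr-miR-320d_R+1: aaaagctgggttgagaggA
hsa-miR-320c_R+2_1ss20TA: aaaagctgggttgagagggAAG
hsa-mir-320e-p3_1ss19GA: GaaaagctgggttgagaAA
Counted from the 5′ end of miR-320a, hsa-miR-320d_R+1 carried G19A and C20A and ptr-miR-320d_R+1 carried G19A. hsa-miR-320c_R+2_1ss20TA carried C20A, G21A and A22G, and hsa-mir-320e-p3_1ss19GA carried G17A and G18A. The differences all lay at the 3′ end. Only hsa-mir-320e-p3_1ss19GA began with an extra base, so that 6 of the 7 miR-320 entries had the seed of miR-320a. 

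Levels are given as normalized counts, that is, read counts that the authors multiplied by 1 factor per library. mml-miR-320a had 128263, 93868 and 96603 normalized counts after ischemia, against 98875, 188509 and 187964 before ischemia. The groups overlapped: the level before ischemia was low in monkey 1 and high in monkeys 2 and 3, and after ischemia it was above baseline in monkey 1 and below it in the other two. The ratio of after to before was 1.30 in monkey 1, 0.498 in monkey 2 and 0.514 in monkey 3. miR-320a was the dominant form of the family and held 98.5 ± 0.199% of all miR-320 after ischemia and 98.6 ± 0.252% before (SD, n = 3 each). Its mean level ranked 21 among the 2046 entries, with places 21, 28 and 28 in the libraries after ischemia and 25, 13 and 11 before ischemia.

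For mml-miR-484 the means stood in the opposite order. It had 37287, 26417 and 54073 normalized counts after ischemia, against 23281, 17897 and 41934 before ischemia. The level after ischemia was above that before in each monkey, by ratios of 1.60, 1.48 and 1.29. The groups overlapped because the baseline of monkey 3, at 41934, lay above the levels of monkeys 1 and 2 after ischemia. Monkey 3 was highest and monkey 2 lowest at both times. Of all 807 entries tested, 22.6% were likewise higher in each of the 3 monkeys. miR-484 ranked 47 by mean level, and the table holds it as 1 entry with no isomiR.

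**Figure D1:**
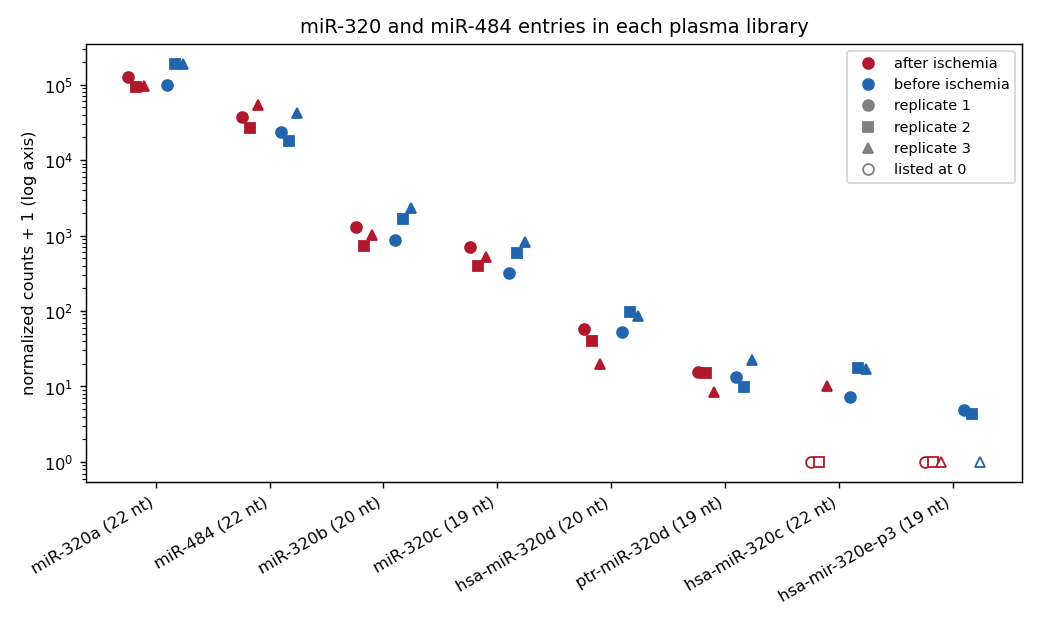
Normalized counts plus 1 (log axis) of the 8 miR-320 and miR-484 entries, 1 point per library, red after and blue before ischemia, the symbol giving the replicate and open symbols values listed at 0. miR-320a lies near 1e+05, miR-484 next, and the shortened and rare miR-320 entries fall off to single counts, with red and blue points overlapping for each of the 6 tested entries.

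The shortened entries followed miR-320a at a much lower level. mml-miR-320b_R-2, of 20 bases, had 1279.9, 729.8 and 1019 normalized counts after ischemia, against 884, 1640.2 and 2302 before ischemia. mml-miR-320c_R-3_1ss15CG, of 19 bases, had 695, 394 and 513 after ischemia, against 322, 591 and 809.7 before ischemia. Both were again above baseline in monkey 1 and below it in monkeys 2 and 3, with overlapping groups. The share of all entries other than miR-320a in the family was 1.24% to 1.60% after ischemia and 1.23% to 1.69% before.

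The rare entries rested on few reads. hsa-miR-320d_R+1 had 57.4, 39.1 and 18.6 normalized counts after ischemia, against 51.4, 95.4 and 83.9 before ischemia. ptr-miR-320d_R+1, shorter by 1 base, had 14.7, 14.1 and 7.44 after ischemia, against 12.5, 8.97 and 21.7 before ischemia. Both overlapped between the groups. Divided by the factor of the library, they stand for 10 to 41.7 and 4 to 11 read counts after ischemia, against 66 to 148 and 13.3 to 38.3 before ischemia. hsa-miR-320c_R+2_1ss20TA was listed at 0, 0 and 9.30 after ischemia, against 6.23, 16.8 and 15.8 before ischemia. hsa-mir-320e-p3_1ss19GA was listed at 0 in each library after ischemia, against 3.90, 3.36 and 0 before ischemia. A value of 0 allows up to 3 counts, that is, 4.14, 3.85 and 5.58 normalized counts in the libraries after ischemia, so a difference of the last entry was not detectable at this depth.

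In limma, 0 of the 6 entries that passed the filter were called after against before ischemia at an adjusted p of 0.05, in either direction, where 1.98% of the 807 entries tested were called higher and 3.47% lower. At an unadjusted p under 0.05 it was also 0 of 6, against 22.3% of all. The groups did not overlap in 0 of 6, against 26.9% of all. The filter asked for 10 normalized counts in at least 3 libraries, and 2 of the 8 entries, those listed at 0 in several libraries, did not reach it. On the log2 scale miR-320a differed by −0.53 ± 0.33 (SE; 95% interval −1.28 to 0.22), with an adjusted p of 0.387 from limma. miR-484 differed by 0.54 ± 0.40 (SE; 95% interval −0.38 to 1.45), with an adjusted p of 0.462 from limma. Both intervals span 0, and the direction of neither miRNA was settled at this number of libraries. This fit did not pair the libraries. With a block for the replicate number, read as the monkey, the intervals were −1.35 to 0.29 for miR-320a and −0.05 to 1.12 for miR-484.

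Among the other tested entries, hsa-miR-320d_R+1 had the lowest log2 fold change, −1.07 (95% interval −2.46 to 0.31), followed by mml-miR-320b_R-2 with −0.60 (−1.60 to 0.39), ptr-miR-320d_R+1 with −0.20 (−2.02 to 1.62) and mml-miR-320c_R-3_1ss15CG with −0.04 (−1.07 to 0.98). Their adjusted p from limma lay between 0.344 and 0.977. When 1 library was left out, hsa-miR-320d_R+1 moved to −0.64 (without replicate 3 after ischemia), and mml-miR-320b_R-2 moved to −0.39 (without replicate 2 after ischemia), −0.29 (without replicate 3 before ischemia) or −0.98 (without replicate 1 before ischemia). The 5 tested miR-320 entries share their seed and nearly all of their sequence, and are not separate measurements of the family. Set against all 807 entries, whose median log2 fold change was −0.06, the fold change of miR-320a stood above that of 34.3% of the entries and that of miR-484 above 72.0%.

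**Figure D2:**
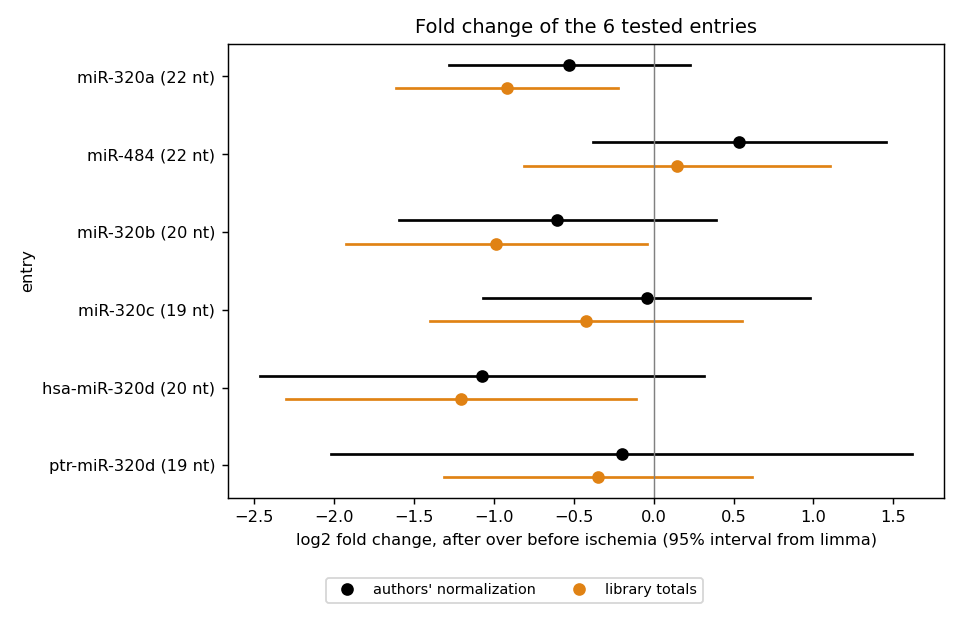
Log2 fold change, after over before ischemia, of the 6 tested entries with the 95% interval from limma, under the authors' normalization (black) and with libraries scaled to their totals as CPM (orange). Every black interval spans 0, while the orange intervals of miR-320a, miR-320b and hsa-miR-320d end below 0 before adjustment over all entries.

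The level of miR-320a depended on the scaling. The authors' factors were higher for the libraries after ischemia (1.28 to 1.86) than for those before ischemia (0.565 to 0.779). As CPM, that is, scaled to a library total of 1000000, miR-320a had 9554, 8326 and 8605 CPM after ischemia, against 11811, 18353 and 21379 CPM before ischemia. On this scale it was lower in each monkey and the groups did not overlap, although the least difference, in monkey 1, was a ratio of 0.809. The exact two-sided permutation test over the 6 libraries gave p = 0.1, the smallest that 3 libraries against 3 allow. Without overlap and lower after ischemia were also mml-miR-320b_R-2 and hsa-miR-320d_R+1, 3 of 6 members in all, against 22.7% of the 807 entries on the same scale. In limma the log2 fold change of miR-320a was −0.92 ± 0.31 (SE; adjusted p = 0.0957, range over all alternatives 0.0957 to 0.696). The same 3 of 6 members, all forms of miR-320, had an unadjusted p under 0.05 in limma. The share of all entries at that threshold was not counted on this scale, so the 3 of 6 cannot be set against it. Under the authors' factors that share was 22.3% of the 807 entries, with 0 of 6 members. None of the 6 was called, where 15 of the 807 entries were called higher and 65 lower. In this fit the pseudocount of 1 was added to CPM, where it weighs more on rare entries than on the authors' values. With totals scaled to their mean over the libraries instead, an alternative chosen after seeing the data, miR-320a stayed at −0.92 (adjusted p = 0.104) and the median of all entries was −0.43. Relative to that median miR-320a stood at −0.49, against −0.47 under the authors' factors. In the fit to CPM, where the median was −0.33, it stood at −0.59 relative to the median. There it lay above 25.4% of the entries, against 34.3% under the authors' factors.

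The same scaling brought the groups of miR-484 closer together. It had 2777, 2343 and 4816 CPM after ischemia, against 2781, 1742 and 4769 CPM before ischemia (exact two-sided permutation test, p = 0.8). The groups overlapped: the ratio of after to before was 0.999 in monkey 1 and 1.01 in monkey 3, and only monkey 2 stood clearly apart from its baseline, at 1.34. The log2 fold change was 0.15 (95% interval −0.81 to 1.10). Relative to the median of all entries, miR-484 stood at 0.58 by library totals scaled to their mean and at 0.59 under the authors' factors. In the fit to CPM it stood at 0.47.

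**Figure D3:**
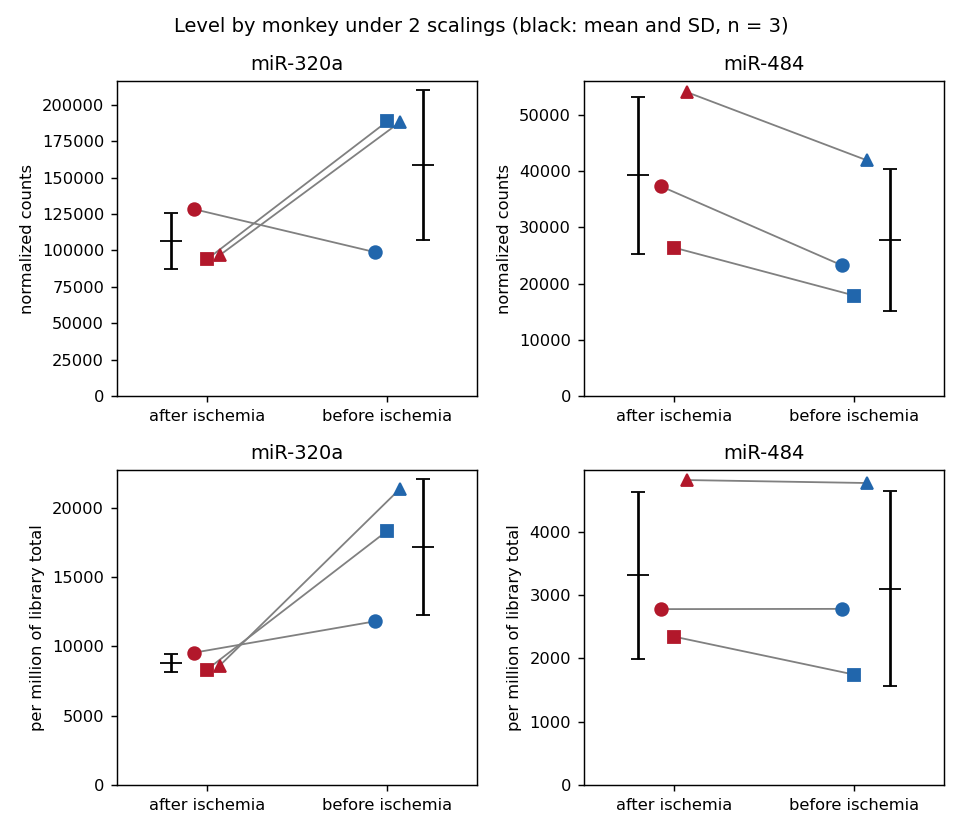
Levels of miR-320a (left) and miR-484 (right) in the 3 monkeys, joined by lines, as the authors' normalized counts (top) and CPM of the library total (bottom, axis labelled as such), with the mean and SD of each group (n = 3). By library totals the miR-320a points after ischemia lie between 8326 and 9554 and those before ischemia between 11811 and 21379, whereas miR-484 overlaps on both scales.

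The ratio of both miRNAs within a library does not depend on the scaling. miR-484 over miR-320a was 0.291, 0.281 and 0.560 after ischemia, against 0.235, 0.0949 and 0.223 before ischemia. It was higher after ischemia in each monkey, by 1.23, 2.96 and 2.51 times, and the groups did not overlap, with 0.281 and 0.235 as the nearest values. Monkey 1 differed least. The mean log2 difference was 1.07, and it lay between 0.64 and 1.30 when each library was left out in turn. The ratio was formed after the levels had been seen and is given as a description. The share of ratios between other miRNAs that part the groups in this way was not counted. Of the 807 single entries tested, 26.9% had groups without overlap, in either direction, under the authors' factors. On the same scale, 22.6% were higher in each monkey.

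A second ratio was tighter within the groups. The 20-base over the 19-base shortened form, mml-miR-320b_R-2 over mml-miR-320c_R-3_1ss15CG, was 1.84, 1.85 and 1.99 after ischemia, against 2.74, 2.78 and 2.84 before ischemia. The shorter form thus made up more of the shortened miR-320 in each monkey after ischemia. Exact Clopper-Pearson intervals (95%) of the ratios spanned 1.61 to 2.30 over the libraries after ischemia and 2.45 to 3.08 over those before ischemia, for counting error only and with counts rounded to whole reads. The read counts behind it were 548 to 928 of 20 bases and 276 to 504 of 19 bases after ischemia, against 1135 to 4071 and 414 to 1432 before ischemia. As shares of all miR-320, the 19-base form held 0.533%, 0.415% and 0.523% after ischemia, against 0.322%, 0.310% and 0.424% before ischemia, while the 20-base form held 0.982%, 0.768% and 1.04% after ischemia, against 0.883%, 0.859% and 1.204% before ischemia. The 19-base share was higher in each monkey, with overlapping groups, and the 20-base share was higher in monkey 1 alone. For comparison, the table holds 9 pairs of entries of other miRNAs in which one is the other plus 1 base at the 3′ end, both present in each library with a mean of at least 100. The ratio of the groups did not overlap in 1 of the 9 (11.1%), which was higher after ischemia, and 4 of the 9 had a lower mean ratio after ischemia. The miR-320 pair was singled out after its values had been seen, and its ratio has no test here. Libraries after ischemia also held fewer reads, and the part of depth in this ratio was not tested.

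**Figure D4:**
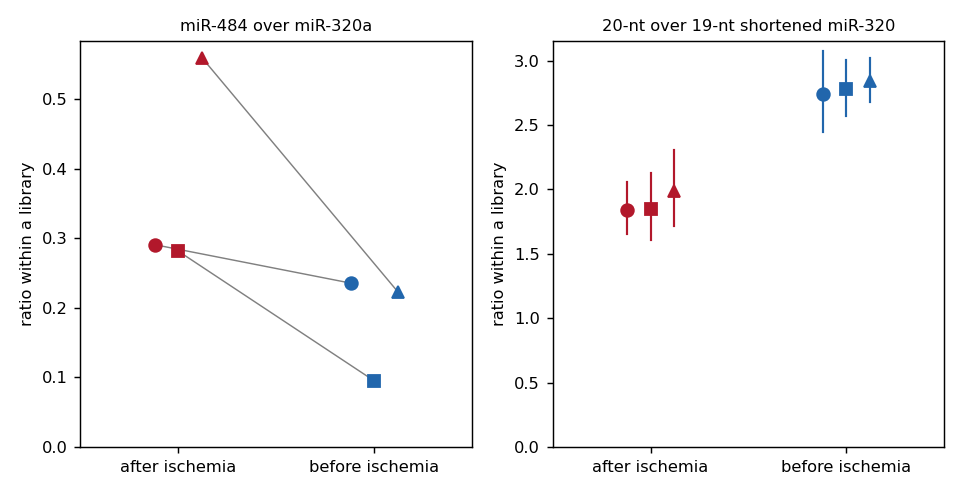
Ratios within a library after (red) and before (blue) ischemia, the symbol giving the replicate. Left, miR-484 over miR-320a, with lines joining each monkey; right, the 20-base over the 19-base shortened miR-320 entry with exact 95% counting intervals, 1.84 to 1.99 after ischemia and 2.74 to 2.84 before ischemia.

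The entries whose profile over the 6 libraries was most like each miRNA were found by the root mean square difference of centred log2 levels, among 428 entries with a mean of at least 100. Nearest to miR-320 was mml-miR-93-5p_L+1 of the miR-106b-25 cluster, at 0.148, with 130314, 85278 and 94774 normalized counts after ischemia, against 83836, 147699.7 and 146172 before ischemia. It showed the same low baseline of monkey 1. mml-let-7a-3p_1ss22CT (0.246), mml-miR-502-3p and mml-miR-500a-3p_L+1R-2_1ss22TA (both 0.247, since they hold identical values) and mml-miR-324-3p_R+1 (0.250) came next, where the median candidate was at 0.731. Nearest to miR-484 were mmu-let-7d-3p (0.200), hsa-miR-144-5p_R+1 (0.217), hsa-miR-486-3p_R+1 (0.246), mml-miR-3122 (0.281) and hsa-miR-548u_L-1R-1 (0.318), with the median candidate at 0.812. Of these, miR-144 and miR-486 are miRNAs of red blood cells. Their most abundant entries, mml-miR-144_R-1 and mml-miR-486-5p, were not among the nearest. This likeness is a description over 6 libraries from 3 monkeys.

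**Figure D5:**
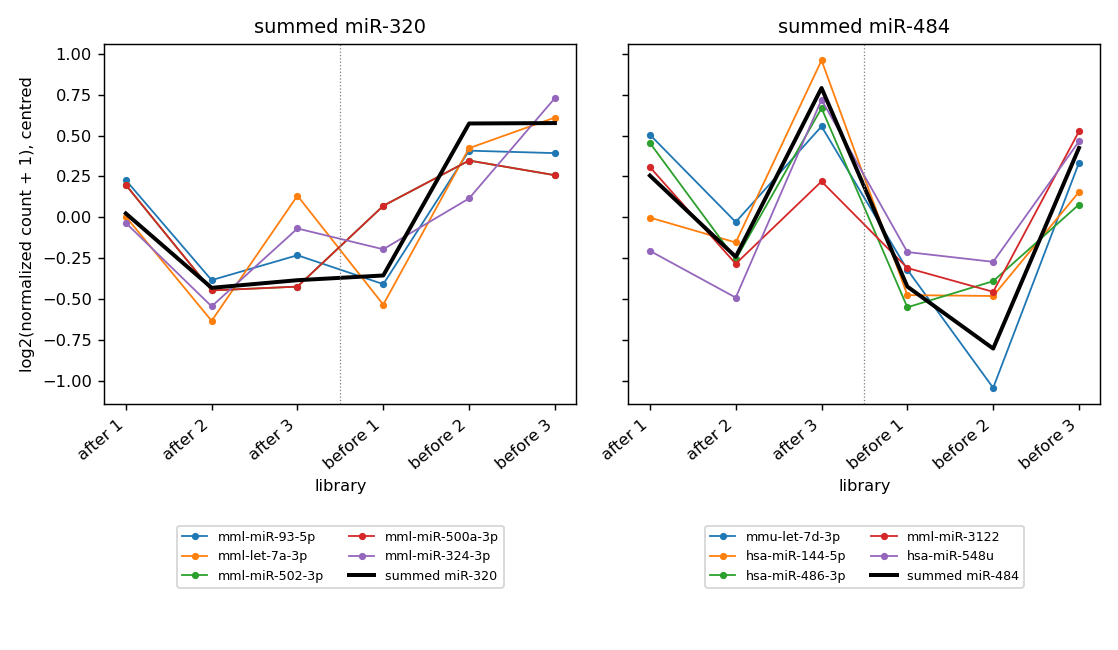
Log2(normalized count + 1), centred on its mean over the 6 libraries, of summed miR-320 (left) and summed miR-484 (right) in black and of the 5 entries most alike in colour; lines only join the points of an entry, and the dotted line parts libraries after from before ischemia. miR-320 shares with miR-93-5p a low value in replicate 1 before ischemia, and miR-484 shares with let-7d-3p, miR-144-5p and miR-486-3p its highest value in replicate 3 after ischemia.

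Since both miRNAs occur in blood cells, markers of these were set beside them. The 11 entries of red blood cell miRNAs (miR-451, miR-486 and miR-144) summed to 1494621 to 4444818 normalized counts after ischemia, against 650183 to 1663455 before ischemia, with 1 entry at 0 in some library and none of the 3 defining miRNAs at 0. None of the 11 was called by limma with all libraries and the filter of 10, 3 had an unadjusted p under 0.05, and their median log2 fold change was 0.58 (0.19 by library totals). Without replicate 2 after ischemia 3 were called higher, with a median of 1.13, without replicate 3 before ischemia 1, with no filter 2, and with a minimum of 100 in 3 libraries 1 of 9 tested. mml-miR-486-5p, by far the most abundant, stood at 1.76 on the log2 scale (limma, adjusted p = 0.0833), against 0.34 for mml-miR-451_R-1, 1.41 for mml-miR-144_R-1 and 0.02 for mml-miR-486-3p. miR-451 over miR-23a-3p, by which hemolysis is judged, stood on the log2 scale at 2.19, −0.17 and 1.86 in monkeys 1, 2 and 3 after ischemia, against 0.33, 0.11 and 1.90 before ischemia. Under the authors' factors miR-320a was above its baseline only in monkey 1, where this ratio was too, and miR-484 was above its baseline in all 3. By library totals the ratios of after to before were 0.809, 0.454 and 0.402 for miR-320a, and 0.999, 1.34 and 1.01 for miR-484. Ratios to these entries differed by the entry chosen. Over miR-486-5p both miRNAs were lower in each monkey: miR-320a over miR-486-5p was 0.0314 to 0.0668 after ischemia, against 0.140 to 0.339 before ischemia, and miR-484 over miR-486-5p was 0.00913 to 0.0204, against 0.0313 to 0.0443. miR-484 over miR-486-3p, in contrast, was higher in each monkey, at 2.40, 1.68 and 2.95 after ischemia, against 1.69, 1.11 and 2.19 before ischemia, and over miR-451_R-1 it was higher in monkeys 2 and 3 only. Over miR-144_R-1, miR-484 was higher in monkey 2 only, at 0.964, 3.29 and 1.58 after ischemia, against 3.35, 3.11 and 2.95 before ischemia. miR-320a was lower in each monkey over miR-451_R-1 and over miR-144_R-1, and in monkeys 2 and 3 only over miR-486-3p. The part of red blood cells in the levels was not tested.

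Platelet miRNAs (6 of 8 entries tested) summed to 288036 to 320660 after ischemia, against 235625 to 338500 before ischemia, and none was called (1 at an unadjusted p under 0.05 in limma, and 1 called higher with a minimum of 100 in 3 libraries). Leukocyte miRNAs (14 of 16 tested) summed to 638861 to 735145, against 380366 to 781928, with 1 entry called higher and 1 lower: mml-miR-142-5p_L+2R-2 (1.37 on the log2 scale, adjusted p = 0.0354 from limma, 0.0214 to 0.461 over the alternatives) and mml-miR-142-3p_R-1 (−3.04, adjusted p = 0.00937, 0.000907 to 0.0402). The call of the first was lost under 10 of 17 alternatives: both scalings to library totals, upper quartile, no trend, the replicate block (adjusted p = 0.0565 from limma) and all left-out libraries except replicate 2 after ischemia. Liver miR-122 (2 of 3 tested, none called and none at an unadjusted p under 0.05 in limma) summed to 7342 to 244458, against 14994 to 113671. Of its 3 entries, 2 were at 0 in some library, and the highest sum in each group was that of monkey 1.

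Other miRNAs made by unusual routes gave no call either. Of miR-451, which AGO2 cuts in place of Dicer, 4 of 4 entries were tested, with a median log2 fold change of −0.39. mml-miR-451_R-1, which held nearly all miR-451, was at 0.34 and mml-mir-451-p3 at 0.86, while the rare isomiRs eca-miR-451_L+1R-1_1ss20TA and ssc-miR-451_L+4R-1 were at −1.37 and −1.11. The median was 0.80 without replicate 2 after ischemia, 0.17 without replicate 3 before ischemia, 0.60 with a minimum of 100 in 3 libraries and 0.00 with a pseudocount of 10. Of mirtrons, which are spliced introns, 3 of 4 were tested, with a median of 0.10. mml-miR-877-5p_1ss20GA, the most abundant mirtron, had 441, 215 and 255 normalized counts after ischemia, against 177, 271 and 414 before ischemia. It was thus above baseline in monkey 1 alone, as miR-320a was under the authors' factors. By library totals miR-320a was below its baseline in monkey 1 too, at a ratio of 0.809. For miRNAs from snoRNAs, 2 of 3 were tested with a median of 0.46. In these 3 lists, 0 entries were called in limma and 0 had an unadjusted p under 0.05, and by library totals scaled to their mean the medians were −0.75 for miR-451, −0.29 for mirtrons and 0.07 for snoRNAs, so that the sign for mirtrons turned. Over all entries tested the median was −0.06, and −0.43 by these totals.

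miR-484 was also set beside 18 tested entries, of 21, of miRNAs that have served as reference levels in plasma (miR-16, miR-24, miR-93, miR-103, miR-191, miR-423 and miR-425). Their median log2 fold change was 0.07, and −0.32 by library totals scaled to their mean, by which 2 were called lower. Of these, mml-miR-423-3p fell to 18726, 13813 and 18947 normalized counts after ischemia, against 47886, 59435 and 51680 before ischemia (−1.64 ± 0.27 on the log2 scale, SE; limma gave an adjusted p of 0.0116, with 0.00210 to 0.0679 over the alternatives), and none was called higher. The log2 fold changes of the 4 most abundant were 0.98 for mml-miR-191-5p, 0.06 for mml-miR-103-3p, −0.26 for mml-miR-93-5p_L+1 and 1.02 for mml-miR-16-5p, at adjusted p from 0.106 to 0.946, and that of miR-484 lay within this range. On the log2 scale the SD of miR-484 between monkeys was 0.52 after and 0.63 before ischemia (0.58 pooled), close to its difference of 0.54 between the groups. This SD is the spread between monkeys and not that of the change within a monkey. The ratios of after to before within a monkey were 1.60, 1.48 and 1.29 under the authors' factors, and 0.999, 1.34 and 1.01 by library totals.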

How the data were processed

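Plasma small RNA was sequenced in 6 libraries, 3 after and 3 before ischemia. After trimming, the authors took lengths from 18 to 26 nt, discarded Rfam matches of other RNA classes and assigned miRNAs with ACGT101-miR; its version and the genome build are not given in the sources used here. The deposited signal values are normalized counts, with 5 empty lines not reported here. The factor of a library was taken as the largest step of which at least 80% of its values above 0 were whole multiples within 0.01 counts (84.0% to 86.9%), giving totals of 6036831 to 15548693 counts. The rest were fractions, so no count test was run.

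log2(normalized count + 1) was tested with limma 3.58.1 (R 4.3.3, variance trend, no covariate) over entries with 10 in at least 3 libraries, with Benjamini-Hochberg adjustment. Fold changes on this scale understate those of rare entries. Other values came from Python 3.11.15, NumPy 2.4.6, SciPy 1.17.1, pandas 2.3.3 and Matplotlib 3.10.9. The fit was run on simulated data with independent noise for each value. These held no effect shared within a library or monkey, so they do not bear on scaling or pairing. All members, 5 most alike entries and up to 4 entries per list were named by rule; members and lists were chosen with earlier results of these data known. With 1 library per monkey and time, p-values cover biological and technical spread together.

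Same-numbered libraries were taken as pairs from 1 monkey, since the paper joins them. Their deviations from group means correlated at 0.18, 0.36 and 0.29, and at −0.40 to 0.14 otherwise. Centring within a group ties these values to each other, so they cannot settle the pairing. Replicate 1 after ischemia correlated at 0.18 with its own number and at 0.14 with replicate 3 before ischemia. Alternatives were other scalings, pseudocounts, filters, no trend, a replicate block, merged sequences and left-out libraries.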

Additional observations from a re-analysis of the deposited data

How the results depend on the processing

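No member was called under any alternative run, and 0 was the count in each. With the replicate block, 17 entries of the table were higher and 29 lower, against 16 and 28, no member's call changed, and miR-484 had an adjusted p of 0.227. Counts over the table moved by over 1.5 times to 65 lower by library totals (48 with totals scaled to their mean, chosen after seeing the data), 8 higher by upper quartile and 10 higher without the trend; the cause was not tested. Leaving out each library gave 5 to 15 higher and 14 to 28 lower. Over these, the log2 fold change of miR-320a ranged from −0.84 (without before ischemia replicate 1) to −0.37 and that of miR-484 from 0.27 (without before ischemia replicate 2 or after ischemia replicate 3) to 0.88 (without before ischemia replicate 3). mml-miR-320b_R-2 ranged from −0.98 to −0.29 and hsa-miR-320d_R+1 from −1.43 to −0.64. mml-miR-320c_R-3_1ss15CG ranged from −0.41 to 0.25 and ptr-miR-320d_R+1 from −0.47 to 0.12, so their sign turned (0.15, 0.02 and 0.25 without after replicate 2, before replicate 2 or before replicate 3; 0.09 and 0.12 without after replicate 3 or before replicate 3). Summed miR-320 ranged from −0.84 to −0.37. The ratio of miR-484 to miR-320a moved to 0.64 without before ischemia replicate 2. Alternatives of the 2 ratios were chosen after seeing the data, and a count test was not run. Depth limits the 4 rare entries, at 148 counts or fewer per library.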

Other observations

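Entries of other names in the table carry the seed of miR-320a and its first 12 bases. These are hsa-miR-4429_R+1_1ss11CT and 3 predicted candidates, and none came near miR-320a in level. The most abundant, PC-3p-7745_194, had 12.4, 11.5 and 37.2 normalized counts after ischemia, against 21.8, 100.2 and 61.6 before ischemia. PC-3p-28531_43 had 13.8, 0 and 0 after ischemia, against 9.35, 22.2 and 26.6 before ischemia, and the other two stayed at or under 10.1 in every library. They were not taken as members, since the choice went by name.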
